A study of Mus musculus with 9 samples.

Results

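The genes described here make, move, break down and sense acetylcholine, and they were chosen by symbol: Chat, Slc18a3, Slc5a7, Ache, Bche and Chrm3. All 6 symbols were found once each among the 55341 genes counted in every library, and 5 of the 6 passed the filter on low counts that left 16250 genes for testing. Loss of the Polycomb subunit PCGF6 went with more Chat and Slc18a3 RNA on average over the 2 Cre drivers. The Slc18a3 result rests on few counts, 0 to 3 in each WT library and 22 and 3 in the Villin KO libraries. Ache, Bche and Chrm3 did not pass the test in any comparison, and Slc5a7 was too low to test.

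The series measured polyadenylated RNA by Smart-seq2, from 2 ng of RNA per library. It came from small-intestinal crypts of C57BL/6 males between 8 and 12 weeks of age. The series asks what loss of PCGF6 changes in adult intestinal epithelial cells. PCGF6 belongs to a variant form of Polycomb repressive complex 1. Deletion used AhCre, driven by an Ah-receptor-responsive promoter and induced with beta-naphthoflavone (BNF), or Villin-CreERT2, active in intestinal epithelium and induced with tamoxifen. Of the 9 libraries, 4 used AhCre, with 2 of wild type (WT) and 2 of Pcgf6 knockout (KO) crypts, and 5 used Villin-CreERT2, with 3 WT and 2 KO. Per the labels, the WT mice of each driver received the same inducer as the KO mice. The titles give 15 days after induction, whereas a second description line and the design text give 7 days. For the Villin samples the first line of the description speaks of BNF instead of tamoxifen. Whether a library came from 1 mouse or a pool is not given in the sources used here, so p-values measure only the spread between these libraries, which may be technical.

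Acetylcholine is made from choline and acetyl-CoA by choline acetyltransferase, loaded into vesicles by the vesicular acetylcholine transporter, and split by cholinesterases. Neurons recover the freed choline through the high-affinity choline transporter. In the gut wall acetylcholine is a transmitter of enteric neurons, and in the epithelium tuft cells, rare chemosensory cells, also express Chat; the M3 muscarinic receptor on epithelial cells signals through Gq proteins to phospholipase C beta and calcium release.

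Chat and Slc18a3 form the cholinergic gene locus, in which the transporter gene lies in the first intron of the synthetic enzyme's gene. In GRCm38 with the GENCODE M21 annotation, Chat spans chr14:32408203-32465989 on the minus strand with 4703 bases of exons, and Slc18a3 lies inside that span at chr14:32462438-32464850 on the same strand with 2413 bases of exons. They share 0 exon bases, so reads within annotated exons separate them, although unspliced Chat RNA can cover Slc18a3. Slc5a7 lies at chr17:54273590-54299034 (minus strand), Ache at chr5:137287519-137294466 (plus strand), Bche at chr3:73635808-73708415 (minus strand) and Chrm3 at chr13:9875486-10360847 (minus strand). Ache shares 98 exon bases with the lincRNA Gm42456 on the opposite strand, and Smart-seq2 does not keep strand, so reads there cannot be assigned. The other members share no exon bases with another gene.

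The RefSeq start sites of Chat and Slc18a3 (GRCm38.p6) lie 1059 bases apart. The 300-base windows from 250 bases before to 50 bases after these starts are shown because both genes were higher in KO libraries of both drivers, with that of Ache, which was not, for contrast. Capitals mark CACGTG, a canonical E-box that reads the same on both strands.
Chat, chr14:32465860-32466159, minus strand: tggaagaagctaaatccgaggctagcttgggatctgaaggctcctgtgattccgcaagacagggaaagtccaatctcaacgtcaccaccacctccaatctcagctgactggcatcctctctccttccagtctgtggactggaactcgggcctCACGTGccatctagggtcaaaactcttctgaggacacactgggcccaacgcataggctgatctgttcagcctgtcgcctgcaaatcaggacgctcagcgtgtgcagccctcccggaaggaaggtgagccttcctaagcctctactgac
Slc18a3, chr14:32464801-32465100, minus strand: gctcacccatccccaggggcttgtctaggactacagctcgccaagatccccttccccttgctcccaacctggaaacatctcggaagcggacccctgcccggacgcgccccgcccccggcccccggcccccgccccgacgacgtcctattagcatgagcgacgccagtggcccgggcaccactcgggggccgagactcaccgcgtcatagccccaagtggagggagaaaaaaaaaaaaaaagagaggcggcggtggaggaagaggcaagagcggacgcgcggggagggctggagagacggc
Ache, chr5:137288004-137288303, plus strand: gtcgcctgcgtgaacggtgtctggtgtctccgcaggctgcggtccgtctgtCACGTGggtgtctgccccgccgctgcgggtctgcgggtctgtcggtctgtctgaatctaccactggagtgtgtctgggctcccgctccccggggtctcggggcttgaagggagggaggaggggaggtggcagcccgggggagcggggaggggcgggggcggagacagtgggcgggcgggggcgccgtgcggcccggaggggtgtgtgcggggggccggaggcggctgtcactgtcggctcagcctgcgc

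The E-box begins 98 bases before the Chat start and 199 bases before the Ache start, and the Slc18a3 window has none. CACGTG occurs in 7.15% of all 32851 RefSeq promoter windows of this length. GCGGGAA, an E2F-type motif found in 4.6% of the windows, and ATGCAAAT, the octamer motif found in 1.74%, were searched on both strands and occur in 0 of the 6 members' windows. These motifs do not overlap one another. The matches are letters in a window only, since no binding was measured in these libraries.

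Total counts were 9263993 to 12377921 in the AhCre libraries and 6455098 to 8339149 in the Villin libraries. A count of 3, taken as the floor, equals 0.194 to 0.615 CPM (counts scaled to library size and TMM factor) in a single library. Pcgf6 itself was 14.1 and 10.1 CPM in AhCre WT against 7.20 and 5.90 CPM in KO, and 9.44 to 12.7 CPM in Villin WT against 3.07 and 2.47 CPM in KO; it fell by 1.44 on the log2 scale on average over the drivers (adjusted p = 0.0327). Replicates differed by more than counting error, the chi-square of their counts divided by its degrees of freedom being 6.48 and 10.8 in the AhCre groups and 43.3 to 63.6 in the Villin groups. Villin KO replicate 1 stood apart: its 15 tuft cell markers summed to 4207 CPM against 576 CPM in Villin KO replicate 2. The 10 epithelial and crypt markers had counts in every group. They summed to 9708 and 10947 CPM in AhCre WT against 12416 and 12611 CPM in KO, and to 10913 to 16722 CPM in Villin WT against 18265 and 19406 CPM in KO, higher in KO in both drivers, and their part in the members' values was not tested. Of this list Krt20, of differentiated cells, was called higher (1.33, edgeR adjusted p = 0.0318) and Lgr5, of stem cells, lower (-1.40, adjusted p = 0.038) in Villin; they are named after their values were seen.

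Chat, which encodes choline acetyltransferase, rose in KO crypts. It was counted at 1.29 and 0.969 CPM in the AhCre WT libraries (20 and 13 counts) and at 9.70 and 9.97 CPM in the AhCre KO libraries (120 and 115 counts). In Villin WT it was 1.44, 1.15 and 1.93 CPM (8, 9 and 10 counts), and in Villin KO 22.5 and 6.48 CPM (110 and 42 counts). All KO libraries were above all WT libraries within each driver, as 23.4% of all genes tested were in AhCre and 14.5% in Villin. The AhCre group means were 1.13 ± 0.228 CPM (SD, n = 2) for WT and 9.84 ± 0.192 CPM (n = 2) for KO. The Villin group means were 1.51 ± 0.391 CPM (SD, n = 3) for WT and 14.5 ± 11.4 CPM (n = 2) for KO, whose libraries differed widely.

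On average over both drivers the Chat log2 fold change was 3.18 ± 0.41 (SE; 95% interval 2.29 to 4.07; adjusted p = 0.00614, edgeR quasi-likelihood test). In that comparison 1.17% of all genes tested were called, 0.972% as higher and 0.197% as lower, and 2 of the 5 members tested, Chat and Slc18a3, were called, both higher. Slc18a3 passed the filter on low counts only through KO libraries, since its WT libraries had 0 to 3 counts. Its place among the members tested therefore came from the group where it was high. The Chat call was lost when AhCre WT replicate 1 (adjusted p = 0.0564), AhCre WT replicate 2 (0.0679) or Villin WT replicate 1 (0.0536) was left out, with log2 fold changes of 2.62 to 3.51 over all 9 omissions. In bulk crypts, more Chat-expressing cells and more Chat RNA per cell cannot be told apart.

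**Figure D1:**
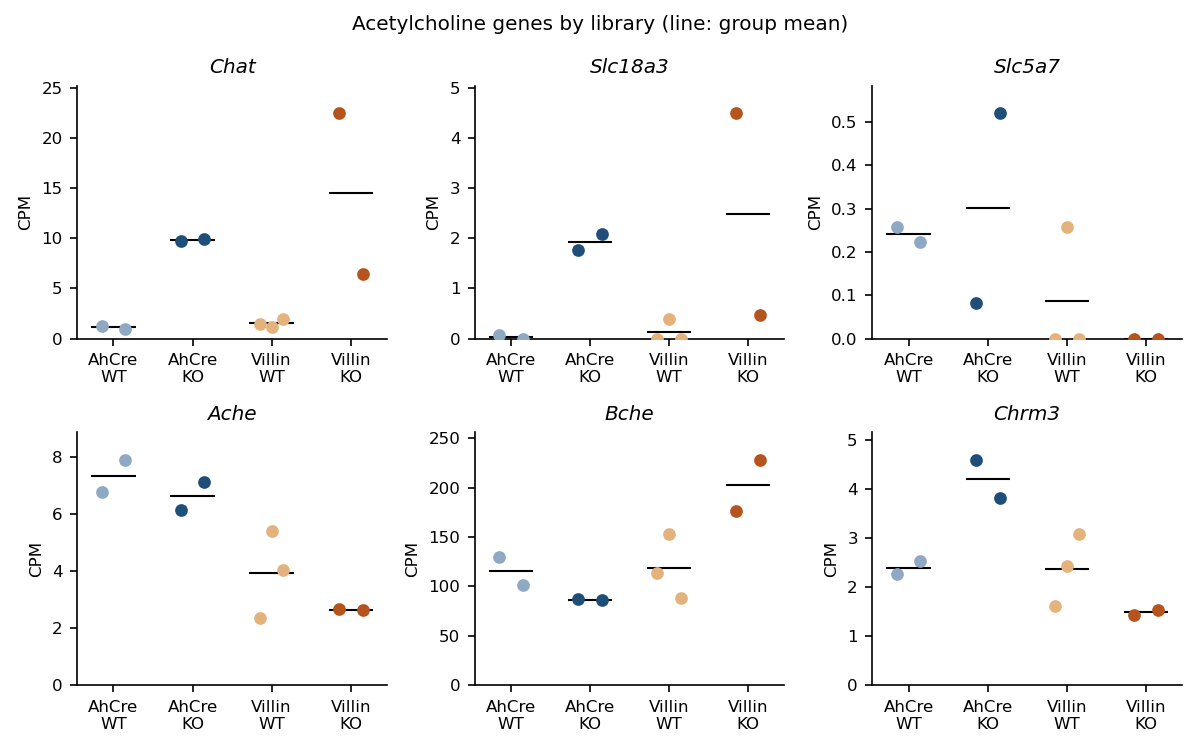
CPM of each of the 6 members (vertical axes, each from 0) in every library, by group (horizontal axis), with a line at the group mean. Chat in KO libraries lies between 6.48 and 22.5 CPM, above the 0.969 to 1.93 CPM of the WT libraries.

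Within single drivers, the Chat effect was 3.10 ± 0.60 on the log2 scale in AhCre (adjusted p = 0.252) and 3.27 ± 0.55 in Villin (adjusted p = 0.00994) in the edgeR fit over all 9 libraries. That fit called 0.00615% of genes in AhCre and 6.21% in Villin, 3.33% as higher and 2.88% as lower (53.6% of the Villin calls higher, or 64.5% with DESeq2 size factors). It called 0 of the 5 members tested in AhCre, with 2 (Chat and Slc18a3) at an unadjusted p under 0.05, 1 (Chat) by the DESeq2 Wald test and 0 by limma-voom. Of the 16250 genes tested, 574 had an unadjusted p under 0.05 in AhCre by edgeR. With the spread estimated from the 4 AhCre libraries alone, the Chat log2 fold change was 3.12 ± 0.30 (adjusted p = 1.71e-06), and 6.43% of genes were called, 3.62% as higher and 2.82% as lower; Chat and Slc18a3 were the members called. With the 5 Villin libraries alone it was 3.40 ± 0.67 (adjusted p = 0.0147), and 1.89% of genes were called, 1.64% as higher and 0.256% as lower; Chat was the member called. In the fit over all 9 libraries the Villin value was 2.13 (adjusted p = 0.0712) without Villin KO replicate 1 and just missed the threshold without Villin WT replicate 1 (adjusted p = 0.05). The difference between the drivers' Chat effects was -0.17 ± 0.82 (AhCre minus Villin; adjusted p = 0.943), an error that leaves room for effects several-fold apart.

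Slc18a3, which encodes the vesicular acetylcholine transporter, rose on average over the drivers from levels near 0. It had 1 and 0 counts in AhCre WT (0.0646 and 0 CPM) and 22 and 24 counts in AhCre KO (1.78 and 2.08 CPM). In Villin it had 0, 3 and 0 counts in WT (0, 0.385 and 0 CPM) and 22 and 3 counts in KO (4.51 and 0.463 CPM). The AhCre groups were far apart, whereas Villin KO replicate 2 and Villin WT replicate 2 both had 3 counts, so the Villin groups separated only by the scaling to depth. Over summed counts, 46 against 1 in AhCre gave a ratio of 55.6 with an exact 95% interval of 9.50 to 2244, and 25 against 3 in Villin gave 13.6 with an interval of 4.15 to 70.4. These intervals cover counting error only.

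The averaged log2 fold change of Slc18a3 was 4.59 ± 0.88 (edgeR, adjusted p = 0.028), a fitted size that depends on the prior count because the WT counts are so low. It ranged from 3.44 to 6.45 over the 9 omissions of 1 library. The call held when Villin WT replicate 3 (adjusted p = 0.0433) or Villin KO replicate 2 (0.00222) was left out. It was lost without AhCre WT replicate 1 (0.142), AhCre WT replicate 2 (0.186), AhCre KO replicate 1 (0.0929) or AhCre KO replicate 2 (0.102). It was also lost without Villin WT replicate 1 (0.0987), Villin WT replicate 2 (0.0609) or Villin KO replicate 1 (0.19). In the fit over all libraries the effect passed in neither driver (log2 fold change 5.34 ± 1.34, adjusted p = 0.445 in AhCre; 3.83 ± 1.15, adjusted p = 0.0652 in Villin). From the AhCre libraries alone it was 5.48 ± 0.79 (adjusted p = 0.000174). Without Villin KO replicate 1 the Villin value was 1.51 (adjusted p = 0.596). Without Villin WT replicate 2, which held all 3 WT counts, it was 7.54, a fitted size against WT libraries with no counts.

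The share of Slc18a3 in the summed counts of Slc18a3 and Chat describes how the nested genes were represented. It was 46 of 281 counts, 16.4% (exact Clopper-Pearson 95% interval 12.2 to 21.2%), in AhCre KO and 25 of 177 counts, 14.1% (9.35 to 20.1%), in Villin KO. In WT it was 1 of 34 counts, 2.94% (0.0744 to 15.3%), in AhCre and 3 of 30 counts, 10% (2.11 to 26.5%), in Villin. The intervals cover counting error only, and they overlap between WT and KO within each driver. In Villin KO, replicate 1 gave 22 Slc18a3 and 110 Chat counts, and replicate 2 gave 3 and 42. Per kilobase of exon, Slc18a3 ran below Chat in each AhCre KO library (0.737 and 0.863 against 2.06 and 2.12 CPM per kb).

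Slc5a7, which encodes the high-affinity choline transporter, stayed near the floor. AhCre WT gave 4 and 3 counts and AhCre KO 1 and 6 counts. Villin WT gave 0, 2 and 0 counts, and both Villin KO libraries gave 0. The groups overlapped, and the gene did not pass the filter. The AhCre sums of 7 and 7 counts gave a ratio of 1.21 with an exact 95% interval of 0.362 to 4.04, and a change within that range was not detectable at this depth.

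**Figure D2:**
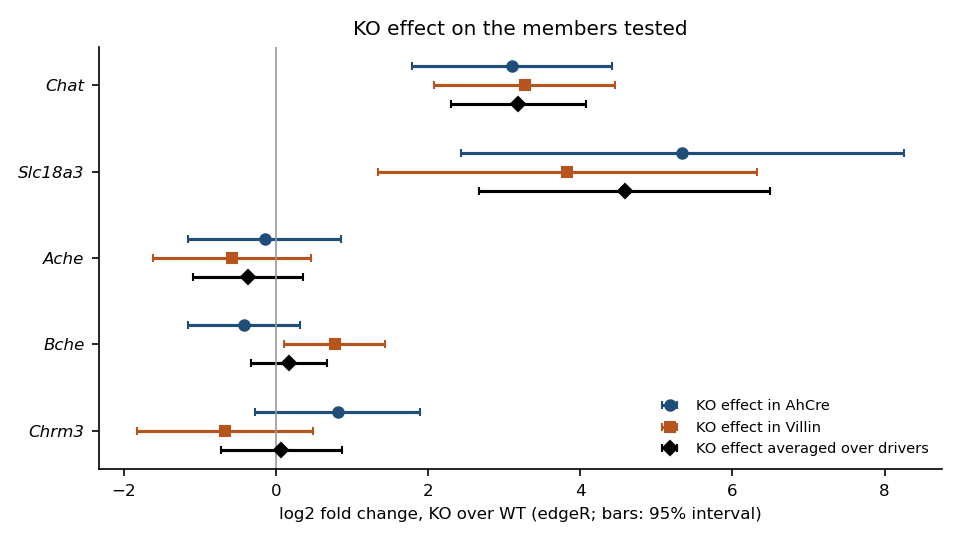
Log2 fold change of KO over WT (horizontal axis, edgeR, with 95% intervals) for the 5 members tested, on average and in each driver. The averaged interval of Chat runs from 2.29 to 4.07, whereas the averaged intervals of Ache, Bche and Chrm3 cross 0. The Villin interval of Bche, 0.11 to 1.44, lies above 0, but its edgeR adjusted p was 0.138.

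The esterases that end the acetylcholine signal did not pass the test. Ache, acetylcholinesterase, was 6.78 and 7.90 CPM in AhCre WT and 6.14 and 7.11 CPM in AhCre KO. In Villin it was 2.34, 5.39 and 4.05 CPM in WT and 2.66 and 2.62 CPM in KO. WT and KO libraries overlapped within both drivers. The averaged log2 fold change was -0.36 ± 0.33 (95% interval -1.08 to 0.36; edgeR, adjusted p = 0.692).

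Bche, butyrylcholinesterase, an esterase of broader specificity, was the most abundant member. In AhCre it was 129 and 101 CPM in WT and 87.2 and 85.7 CPM in KO. In Villin it was 114, 153 and 88.4 CPM in WT and 176 and 228 CPM in KO. The KO libraries were thus below WT in AhCre and above WT in Villin, with no overlap in either; 25.1% of all genes tested lay below in AhCre and 14.5% above in Villin. The log2 fold change was -0.42 ± 0.34 in AhCre (edgeR, adjusted p = 1) and 0.77 ± 0.31 in Villin (95% interval 0.11 to 1.44). The Villin edgeR p was 0.0265 unadjusted and 0.138 adjusted. In Villin 4239 of the 16250 genes tested had an unadjusted p under 0.05. The average was 0.18 ± 0.23 (95% interval -0.32 to 0.68, edgeR adjusted p = 0.797).

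Chrm3, the M3 muscarinic receptor and a Gq-coupled receptor of epithelial and smooth muscle cells, showed the reverse order. It was 2.26 and 2.54 CPM in AhCre WT against 4.61 and 3.82 CPM in KO. In Villin it was 1.62, 2.44 and 3.08 CPM in WT against 1.43 and 1.54 CPM in KO, with only 7 and 10 counts in the KO libraries. KO libraries were above WT in AhCre, as in 23.4% of all genes, and below WT in Villin, as in 19.8%. Neither effect passed the test (0.81 ± 0.50 in AhCre, edgeR adjusted p = 1; -0.67 ± 0.53 in Villin, adjusted p = 0.45), and the averaged value was 0.07 ± 0.37 (95% interval -0.73 to 0.87; adjusted p = 0.96).

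Bche and Chrm3 were the members whose KO libraries lay beyond WT in opposite directions in the drivers. Over all genes tested, 9.68% did so. The test of the difference between the drivers passed for 0 of the 5 members by edgeR, DESeq2 and limma-voom, and 1 member, Bche, had an unadjusted p under 0.05 by edgeR. So did 2579 of the 16250 genes tested. Over all genes edgeR called 0.0738%, 0.0677% with a lower effect in AhCre. The differences (AhCre minus Villin) were -1.19 ± 0.46 for Bche (adjusted p = 0.248), 1.48 ± 0.73 for Chrm3 (0.342), 0.43 ± 0.66 for Ache (0.783) and 1.51 ± 1.89 for Slc18a3 (0.724). Chat and Slc18a3 were the members with KO above WT in both drivers, as were 3.42% of all genes. For Slc18a3 in Villin that order came only through the TMM factors.

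The comparison of AhCre WT with Villin WT called 0 of 5 members by edgeR, DESeq2 and limma-voom, and 0 had an unadjusted p under 0.05 by edgeR. By edgeR 7.58% of all genes were called, 3.53% as lower in AhCre WT, and 4755 of 16250 had an unadjusted p under 0.05. Driver, inducer and depth differ together between these groups and cannot be told apart. Ache differed by 0.89 ± 0.43 on the log2 scale (edgeR, adjusted p = 0.189), with both AhCre WT libraries above all Villin WT libraries, as in 26.5% of all genes. Chat differed by -0.39 (adjusted p = 0.694), Bche by -0.04 (0.948) and Chrm3 by 0.01 (0.989).

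Levels were compared between genes only per kilobase of exon. In AhCre WT the order was Bche (15.0 to 19.2 CPM per kb), Ache (1.47 to 1.71), Chrm3 (0.361 to 0.405), Chat (0.206 to 0.275), Slc5a7 (0.0396 to 0.0458) and Slc18a3 (0 to 0.0268), with no overlap between neighbours. In AhCre KO Chat, at 2.06 to 2.12 CPM per kb, stood after Bche only (12.7 to 12.9) and above Ache (1.33 to 1.54), with Slc18a3 (0.737 to 0.863) and Chrm3 (0.610 to 0.737) close behind. Chat, below Ache and Chrm3 in the WT libraries, was above both in the KO libraries.

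In Villin WT Bche (13.1 to 22.7 CPM per kb) and Ache (0.505 to 1.17) led, and Chrm3 (0.259 to 0.493) and Chat (0.245 to 0.410) overlapped. In Villin KO Chat (1.38 and 4.79) was below Bche (26.1 and 33.9) and above Ache (0.567 and 0.576) in both libraries. Slc18a3 (0.192 and 1.87) overlapped the range of Ache and of Chrm3 (0.229 and 0.247). The ratio of Bche to Ache per kilobase was 8.80 and 13.1 in WT against 8.26 and 9.74 in KO crypts of AhCre, and 15.0 to 33.3 in WT against 45.3 and 59.7 in KO crypts of Villin.

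Chat RNA moved with the summed markers of tuft cells. The 15 tuft cell markers summed to 202 and 218 CPM in AhCre WT and 1203 and 1118 CPM in KO, and to 94.5 to 151 CPM in Villin WT and 4207 and 576 CPM in KO. All 15 markers had counts in each group, and the defining genes Pou2f3, Trpm5 and Dclk1 were called higher on average over the drivers (edgeR log2 fold changes 3.29, 3.28 and 2.86; adjusted p = 0.00952, 0.00749 and 0.0117). Chat counts were 0.639 and 0.444% of the summed tuft marker counts in AhCre WT and 0.807 and 0.892% in KO. In Villin they were 1.08 to 1.27% in WT and 0.536 and 1.13% in KO, with the lower value in Villin KO replicate 1. The part of tuft cell number in the Chat and Slc18a3 changes was not tested.

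**Figure D3:**
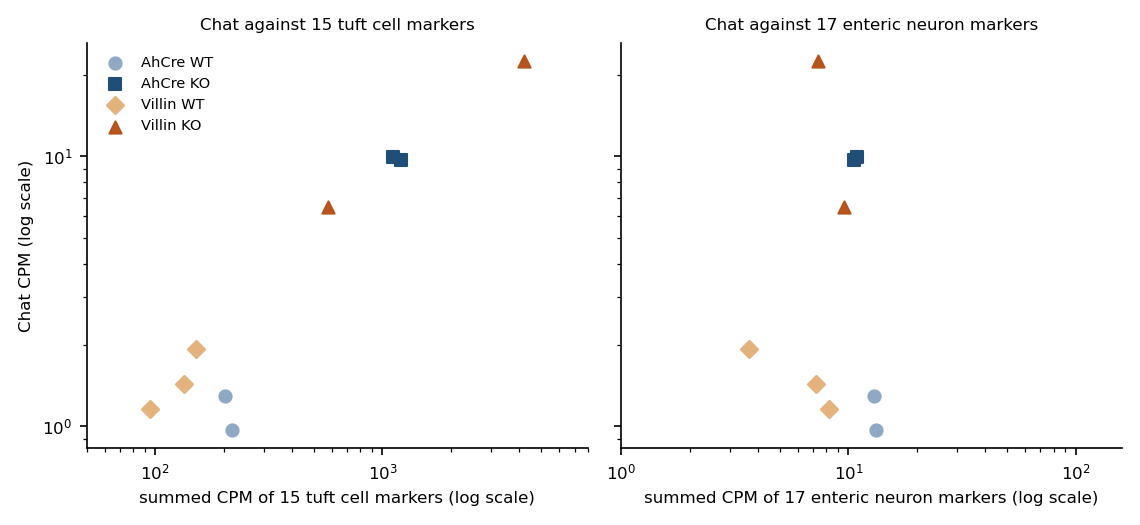
Chat CPM (vertical axis, log scale) against the summed CPM of tuft cell markers (left) and enteric neuron markers (right; horizontal axes, log scale), 1 point per library. Along the tuft axis KO libraries start at 576 CPM and WT libraries end at 218 CPM. Along the neuron axis they overlap over all libraries and within Villin. Within AhCre the neuron sums of KO (10.6 and 10.9 CPM) lie below those of WT (13.0 and 13.3 CPM).

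The summed markers of enteric neurons, the other cholinergic cells of the gut wall, did not separate KO from WT in the direction of Chat in both drivers. Their 17 genes summed to 13.0 to 13.3 CPM in AhCre WT and 10.6 to 10.9 CPM in KO, and to 3.66 to 8.21 CPM in Villin WT and 7.38 to 9.56 CPM in KO. In Villin KO 7 of the 17 had no counts, among them Elavl3, Vip and Nos1, against 0 of the 17 in Villin WT. In AhCre KO 3 of the 17 had none, among them Gap43, against 1 in AhCre WT. Each Villin library held only 19 to 64 counts over all 17 genes, and Villin had 3 WT but 2 KO libraries. The numbers of genes without counts therefore depend on depth and on the number of libraries. Elavl4 had 0 to 10 counts and Snap25 5 to 25 counts per library, and Snap25 had an averaged log2 fold change of -0.28 (edgeR, adjusted p = 0.832). Prph, a neuronal intermediate filament gene of the same list that was too low to test, went the other way. It had 1 and 0 counts in AhCre WT against 4 and 7 in KO, and 4, 2 and 0 counts in Villin WT against 14 and 10 in KO, so that its KO libraries were above WT in both drivers, as those of Chat were. Prph is named after its values were seen, and the part of neurons in the Chat values was not tested.

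Smooth muscle markers, which bear on Chrm3, summed to 6.34 to 6.78 CPM in AhCre WT and 7.92 to 8.33 CPM in KO, and to 2.34 to 7.13 CPM in Villin WT and 2.66 to 7.87 CPM in KO. The AhCre sums were higher in KO, as Chrm3 was, and the part of these cells in its values was not tested. Glial markers summed to 149 to 355 CPM, and 3 of the 7, Sox10 among them, had no counts in Villin KO, against 1 in Villin WT. Enteroendocrine markers summed to 645 to 779 CPM in AhCre and 276 to 1248 CPM in Villin.

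Lymphocyte markers summed to 108 and 112 CPM in AhCre WT against 120 and 132 CPM in KO, and to 39.4 to 550 CPM in Villin WT against 260 and 502 CPM in KO. The sums were thus higher in KO in AhCre and overlapped in Villin. Ptprc, the leukocyte surface gene CD45 of that list, named after its values were seen, was higher in KO in both drivers, as Chat was. It was 21.1 and 18.3 CPM in AhCre WT against 46.9 and 50.04 CPM in KO, and 10.5 to 53.2 CPM in Villin WT against 117 and 59.1 CPM in KO (averaged log2 fold change 1.45, edgeR adjusted p = 0.11). The part of these cells in the members' values was not tested.

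The genes whose pattern was most like that of each member were ranked by Pearson correlation of log2 CPM over the 9 libraries, as a description. For Chat these were Sucnr1 (r = 0.987), the succinate receptor and 1 of the 15 tuft cell markers, Mcub (0.979), a subunit of the mitochondrial calcium uniporter, and Rgs22 (0.978). For Slc18a3 they were Capn13 (0.958), a calpain protease, Rgs22 (0.953) and Me1 (0.952), malic enzyme. Rgs22, a regulator of G-protein signalling, stood in both lists.

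The esterases and the receptor had other neighbours. Ache was like Dnah11 (0.978) and Rad54l2 (0.977), Bche like Inafm2 (0.966), Fam69c (0.963) and Trdmt1 (0.957), and Chrm3 like Zfp251 (0.957), Myh11 (0.951), the smooth muscle myosin heavy chain, and Ccdc93 (0.949). All libraries are shared between genes and group means were not removed. Differences between libraries in genotype, driver, depth and cell makeup therefore enter these correlations.

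The wider pathway was read from 62 genes in 7 lists, of which 38 were tested. On average over the drivers edgeR called 1 of the 38 higher, Plcb2, and 0 lower, beside 1.17% of all genes called. DESeq2 called 3 pathway genes, 1 of them lower, and limma-voom called 0. At an unadjusted edgeR p under 0.05, 3 of the 38 were higher and 3 lower, beside 2253 of all 16250 genes in either direction. The median log2 fold change of the 38 was -0.03 against -0.095 over all genes. Plcb2, a phospholipase C beta of tuft and taste cells, was 8.07 and 11.3 CPM in AhCre WT against 47.3 and 40.6 CPM in KO. In Villin it was 2.88, 3.34 and 5.20 CPM in WT against 18.4 and 4.16 CPM in KO, where Villin KO replicate 2 lay within the WT range. Its averaged log2 fold change was 1.87 ± 0.38 (edgeR, adjusted p = 0.0379).

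In Villin 1 of the 38 was called lower, Plcb1, a phospholipase C beta downstream of Gq-coupled receptors, with 26, 34 and 9 counts in WT and 1 and 5 counts in KO (log2 fold change -2.78 ± 0.69; edgeR, adjusted p = 0.0382). Over all genes 2.88% were called lower in Villin. From the Villin libraries alone Plcb1 was -2.65 ± 0.91 (adjusted p = 0.154), and 0 of the pathway genes were called. In AhCre 0 of the 38 were called by edgeR, with 2 higher and 2 lower at an unadjusted p under 0.05, 2 called by DESeq2 and 0 by limma-voom. By edgeR 574 of the 16250 genes tested reached that unadjusted p in AhCre. The fit to the AhCre libraries alone had its own filter, which kept 16257 genes and not the same 38 pathway genes. It called 5 pathway genes, beside 6.43% of all genes called, 3.62% as higher and 2.82% as lower. Of these 5 genes, 4 are named here after their values were seen. Plcb2 (2.20, adjusted p = 1.05e-06) and the inositol trisphosphate receptor gene Itpr2 (1.27, adjusted p = 0.000172) were higher. Itpr1 (-1.62, adjusted p = 3.05e-05) and the choline kinase gene Chka (-1.07, adjusted p = 0.0175) were lower. Between the WT groups Acly, ATP citrate lyase, was higher in AhCre (1.27, edgeR adjusted p = 0.0309), and Chkb, choline kinase beta, lower (-1.38, adjusted p = 0.0372). Of all genes 4.04% were called higher and 3.53% lower in that comparison.

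**Figure D4:**
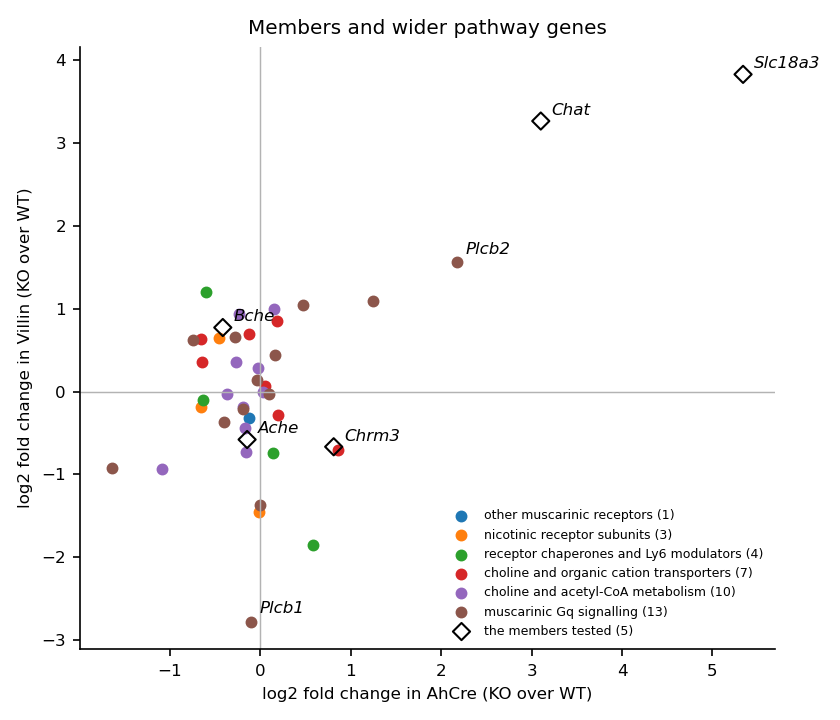
Log2 fold change of KO over WT in AhCre (horizontal axis) and in Villin (vertical axis) for the tested pathway genes by list, with the 5 tested members as open diamonds. Chat and Slc18a3 lie at the upper right, at 3.10 and 5.34 in AhCre and 3.27 and 3.83 in Villin.

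Levels of the wider pathway are given per kilobase as means of the 4 group means. Of the 4 other muscarinic receptors 1 was tested, and Chrm4 had the highest mean, 0.464 CPM per kb from only 42 counts in all. That rank rests on Villin KO (1.21 CPM per kb), since Chrm1 was above Chrm4 in AhCre WT (0.548 against 0.290), AhCre KO (0.502 against 0.253) and Villin WT (0.216 against 0.104). Of 16 nicotinic subunits 3 were tested, with the highest mean for Chrnb1 at 1.40 CPM per kb, although Chrnb4 was above it in AhCre KO (0.733 against 0.683). Of 7 chaperones and Ly6-type modulators 4 were tested, with the highest mean for Lypd6b at 0.309, although Lynx1 was above it in Villin KO (0.330 against 0.0592). Neither of the 2 esterase anchors was tested; Colq, the collagen tail of acetylcholinesterase, had 0.193 CPM per kb. Of 9 choline and organic cation transporters 7 were tested, and all 10 genes of choline and acetyl-CoA metabolism were tested, with the highest mean for Cept1, which makes phosphatidylcholine, at 37.5. In AhCre KO Chdh, choline dehydrogenase, was above Cept1 (28.5 against 21.8). Of 14 genes of Gq signalling 13 were tested, with the highest mean for the G-protein subunit gene Gna11 at 113.7 CPM per kb. Plcb3 was above Gna11 in AhCre WT (80.0 against 71.5) and AhCre KO (60.5 against 58.9).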

How the data were processed

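RNA of 9 crypt libraries was analysed. The authors deposited raw read counts per gene; the tools named per the submitters' processing notes are featureCounts, STAR 2.7 and DESeq2 1.20, and the builds mm10 and GRCm38. What each tool did, which annotation was used and how strand was set is not given in the sources used here. Every one of the 55341 gene names (100%) matched GENCODE M21 of GRCm38. Groups follow the driver and genotype in the titles.

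The filterByExpr function of edgeR 4.0.16 (R 4.3.3), given the 4 groups, kept 16250 genes. After TMM scaling a quasi-likelihood model with a mean for each group was fitted to the 9 libraries together (biological coefficient of variation 0.332, degrees of freedom 5 residual and 7.43 prior). A call needs an adjusted p (Benjamini-Hochberg, over all genes tested) under 0.05 in 1 of the 5 contrasts. SE was the log2 fold change divided by the square root of F. Members below the filter were described by ratios of summed counts with exact 95% intervals, which cover counting error only.

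Named were the 6 members, pathway genes called in any contrast, the pathway gene with the highest level per kilobase in each list, defining markers, and the 3 genes most like each tested member, by Pearson r of log2 CPM with a prior count of 2. Some genes that this rule selects are not reported here. The members and lists were chosen with earlier results of these data known. Also tried were the Wald test of DESeq2 1.42.0, its size factors in edgeR, voom of limma 3.58.1, testing without a filter or with one of 1 CPM in 4 or more libraries, a replicate block, each driver alone and each library left out. The procedure was tested on simulated data. Promoter sequences are from RefSeq (GRCm38.p6), with 6 of 6 members found.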

Additional observations from a re-analysis of the deposited data

Results flagged for a closer look

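Bche and Chrm3 stood out because every KO library lay on one side of WT in AhCre and on the other side in Villin. The KO effect on Bche differed by -1.19 on the log2 scale (AhCre minus Villin; edgeR, adjusted p = 0.248), and its KO libraries were lower than WT in AhCre and higher in Villin. The KO effect on Chrm3 differed by 1.48 (adjusted p = 0.342), with KO above WT in AhCre and below in Villin. The difference itself did not pass the test for either gene, and 9.68% of all genes showed opposite sides in the drivers.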

How the results depend on the processing

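Chat kept its averaged call in the 7 alternatives that used all libraries (log2 fold change 3.02 to 3.25, adjusted p = 1.29e-11 to 0.0393). Of all single-gene values of members under all alternatives, 358 kept their direction and side of the threshold, 15 lost a call, 10 gained one and 11 changed sign. The causes of these changes were not tested. On average over the drivers, 538 genes were called with no filter, 438 by DESeq2, 119 by limma-voom and 48 with a crossed replicate block, against 190. Called pathway genes numbered 4 with no filter, 3 by DESeq2 and 0 by limma-voom or either block, and called members 1 with the CPM filter, where Slc18a3 was not tested, and 1 with either block. In AhCre the calls were 137 genes, 2 members and 1 pathway gene with no filter, 74, 1 and 2 by DESeq2, and 1046, 2 and 5 from AhCre alone. In Villin they were 1591, 2 and 3 with no filter, 1749, 2 and 3 by DESeq2, 642 genes and 0 pathway genes by limma-voom, and 259 genes and 0 pathway genes from Villin alone, where Slc18a3 was removed by the filter. For the difference between drivers 340 genes were called with no filter and 380 by DESeq2. For the WT groups the calls were 2290 genes and 5 pathway genes with no filter and 2278 and 5 by DESeq2.

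Deviations from the group mean were correlated between WT and KO libraries of the same replicate number. The correlation was -0.107 in AhCre, where groups of 2 libraries give the same value for both numbers. It was 0.061 and -0.216 in Villin. So few values cannot show whether the numbers pair the samples. With the replicate block, 137 genes were called on average, 300 in Villin with 0 pathway genes, and 0 for the difference; Slc18a3 had an averaged adjusted p of 0.126. The crossed replicate block in AhCre, chosen after seeing the data, called 46 genes, 0 members and 0 pathway genes in Villin and 0 genes for the difference; Slc18a3 had an averaged adjusted p of 0.18 and Chat a Villin adjusted p of 0.0615. The WT groups were not fitted with a block.

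With each library left out, averaged calls ranged from 2 to 757 genes, 0 to 2 members and 0 to 3 pathway genes. AhCre calls ranged from 1 to 64 genes, 0 to 1 members and 0 to 1 pathway genes, and Villin calls from 73 to 1949, 0 to 2 and 0 to 4. The difference ranged from 0 to 415 genes, with 0 members and 0 pathway genes, and the WT comparison from 8 to 3030 genes, with 0 members and 0 to 6 pathway genes. Signs changed for Chrm3 on average (-0.033 without Villin WT replicate 1, range to 0.18), for the driver difference of Chat (0.15 by limma-voom, 0.06 without AhCre WT replicate 1, 0.98 without Villin KO replicate 1, range from -0.80) and of Slc18a3 (-2.18 without Villin WT replicate 2, range to 3.86). In the WT comparison they changed for Bche (0.0011 with no filter, 0.13 without AhCre WT replicate 2, 0.23 without Villin WT replicate 2, range from -0.22), Chrm3 (-0.07 without AhCre WT replicate 2, -0.20 without Villin WT replicate 1, range to 0.22) and Slc18a3 (1.83 without Villin WT replicate 2, range from -3.50). DESeq2 size factors moved the median of all genes from -0.18 to -0.08 in Villin and from 0.18 to 0.06 for the difference. The WT counts of Slc18a3 and Slc5a7 lay at or near the floor of 3 counts.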
